A study of Mus musculus with 8 samples.

Results

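The urea cycle genes described here are Cps1, Ass1, Asl, Arg1, Nags and Slc25a15, 6 of the 21887 protein-coding genes of the reference table. They were listed by name, as genes of 1 pathway, with earlier results of these data known. What was measured is the number of RNA polymerase II (Pol II) ChIA-PET ends over each gene and 2.5 kb either side, its window. In ChIA-PET, crosslinked chromatin is pulled down with an antibody, here 8WG16 against Pol II, and DNA ends that lie close in a complex are ligated to each other by way of a linker. A short tag read from either side of the junction gives a paired-end tag (PET). All libraries came from livers of wild-type C57BL/6 mice aged 3 to 6 months, kept in 12 hours of light and 12 hours of dark and fed freely, with chromatin of 3 to 7 livers combined for each pull-down. Livers were taken at ZT6 (6 hours after lights on) or at ZT18. Experiment 1 had 2 libraries at each time and experiment 3 had 1 at each, all fixed with EGS and formaldehyde. Experiment 2 had 1 library at each time and was fixed with formaldehyde alone. The deposited rows name the experiment and not the library or the time, so each experiment was 1 pool and day was not compared with night.

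The urea cycle turns ammonia, freed when amino acids are broken down, into urea for excretion, and the complete cycle runs in hepatocytes. Its first steps take place in mitochondria, where carbamoyl phosphate is made and joined to ornithine to give citrulline. The later steps, in the cytosol, add aspartate to citrulline, split the product into arginine and fumarate, and cut arginine into urea and ornithine, which returns to the mitochondrion.

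Promoter sequences are shown for the genes whose PET ends could be placed against an annotated start with a known strand. RefSeq promoters on GRCm38.p6 matched 3 of the 6 genes with 4 entries, each running from 250 bases before the start to 50 after it and printed 5′ to 3′ on the strand of the gene. Ass1 is on the + strand (chr2:31470020-31470319), Nags on the + strand (chr11:102145263-102145562), and Slc25a15 on the − strand, with entry 1 at chr8:22398572-22398871 and entry 2 at chr8:22398228-22398527. Capitals mark the E-box CACGTG, the core of sites bound by CLOCK and BMAL1 among other factors, and the GC box GGGCGG, read on either strand, so that CCGCCC also marks a GC box.
Ass1: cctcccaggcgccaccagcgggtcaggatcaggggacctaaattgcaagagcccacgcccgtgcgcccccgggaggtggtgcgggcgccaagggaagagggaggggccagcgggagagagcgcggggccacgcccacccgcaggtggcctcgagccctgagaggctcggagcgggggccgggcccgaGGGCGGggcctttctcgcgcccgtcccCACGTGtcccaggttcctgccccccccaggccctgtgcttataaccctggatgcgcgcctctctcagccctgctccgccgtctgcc
Nags: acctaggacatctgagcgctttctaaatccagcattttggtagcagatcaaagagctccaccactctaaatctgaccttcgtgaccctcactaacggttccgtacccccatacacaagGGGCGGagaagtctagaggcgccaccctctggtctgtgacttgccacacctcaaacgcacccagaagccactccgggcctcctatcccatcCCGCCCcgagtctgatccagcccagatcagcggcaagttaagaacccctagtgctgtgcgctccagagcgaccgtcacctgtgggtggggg
Slc25a15 entry 1: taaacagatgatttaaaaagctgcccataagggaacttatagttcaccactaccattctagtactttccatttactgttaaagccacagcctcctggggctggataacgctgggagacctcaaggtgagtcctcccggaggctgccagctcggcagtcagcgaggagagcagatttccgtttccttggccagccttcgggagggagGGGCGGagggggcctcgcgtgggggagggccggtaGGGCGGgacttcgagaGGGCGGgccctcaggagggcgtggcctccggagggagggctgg
Slc25a15 entry 2: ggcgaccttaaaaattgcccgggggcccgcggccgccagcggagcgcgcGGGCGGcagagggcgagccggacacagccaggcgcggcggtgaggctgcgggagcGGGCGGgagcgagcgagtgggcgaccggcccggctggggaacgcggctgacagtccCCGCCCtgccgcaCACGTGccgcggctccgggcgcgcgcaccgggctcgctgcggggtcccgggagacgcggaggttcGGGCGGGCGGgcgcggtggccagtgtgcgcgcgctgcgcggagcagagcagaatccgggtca

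The promoters differed in base composition and in the motifs they held. GC content was 74.0% in Ass1, 57.7% in Nags, and 60.7% and 79.0% in the 2 entries of Slc25a15, beside a median of 56.3% over 21263 mouse promoters of the same length. An E-box lay 36 bases before the Ass1 start and 77 bases before the start of Slc25a15 entry 2, and 7.84% of all promoters held one. GC boxes were found in all 4 sequences, 1 in Ass1, 2 in Nags, 3 in entry 1 and 5 in entry 2 of Slc25a15, the last pair of which overlap in the run GGGCGGGCGG. Of all promoters, 46.2% held a GC box. The CCAAT box (CCAAT, in 38.2% of promoters) and the TATA box in the form TATAAA (12.6%) were in none of the 4 windows on either strand. These are matches of letters and not sites shown to be bound. PET ends fell within all 4 windows in all 3 experiments. In experiments 1, 2 and 3, the Ass1 window held 11, 9 and 3 ends, the Nags window 8, 5 and 4, entry 1 of Slc25a15 13, 5 and 4, and entry 2 of Slc25a15 8, 12 and 7.

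PET ends were denser over all 6 genes than over the nuclear genome as a whole, in every experiment. The pools held 474466, 1438852 and 837971 PETs with both ends on nuclear chromosomes in experiments 1, 2 and 3, and 1244, 581 and 800 of their ends fell over the urea cycle genes. To set pools of unequal size side by side, ends per kb over a gene window were divided by the mean ends per kb of the nuclear genome in the same experiment, and this ratio is called the relative density. Intervals are exact 95% limits from the counts and cover counting error only, since no spread between libraries could be measured. In bulk liver, a density summed over fewer cells of a type and a lower density in each cell cannot be told apart.

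Cps1 encodes carbamoyl phosphate synthetase, which makes carbamoyl phosphate from ammonia and is the entry point of the cycle. Its annotated span, chr1:67122426-67231267 on GRCm38, is the longest of the 6 at 109 kb. The window held 436, 175 and 296 PET ends in experiments 1, 2 and 3. Relative density in the same order was 11.0 (9.98 to 12.1), 1.45 (1.25 to 1.69) and 4.22 (3.76 to 4.73). Cps1 was thus denser than 97.6% and 96.1% of protein-coding genes in the pools fixed with EGS, and denser than 76.0% in the pool fixed with formaldehyde alone.

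Nags encodes N-acetylglutamate synthase, which makes the activator that Cps1 requires. At chr11:102145513-102149528 it is the shortest of the 6, and its window held 48, 31 and 36 ends. Relative density was 15.3 (11.3 to 20.2), 3.25 (2.21 to 4.62) and 6.49 (4.54 to 8.98), above 98.7%, 98.6% and 98.8% of genes. Slc25a15 encodes the mitochondrial carrier that exchanges ornithine for citrulline. It lies at chr8:22375550-22398621 and its window held 64, 61 and 57 ends. Its relative density was 6.54 (5.04 to 8.35), 2.06 (1.57 to 2.64) and 3.30 (2.5 to 4.27), above 94.1%, 94.1% and 92.3% of genes.

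Among the genes of the cytosolic steps, Ass1 had the most ends. It encodes argininosuccinate synthase, which joins citrulline and aspartate, at chr2:31470270-31520670. The counts were 448, 187 and 287, and relative density was 23.2 (21.1 to 25.4), 3.19 (2.75 to 3.68) and 8.41 (7.47 to 9.45), above 99.5%, 98.5% and 99.4% of genes. Asl encodes argininosuccinate lyase, which releases arginine and fumarate, at chr5:130011258-130024381. Its window held 76, 49 and 53 ends, a relative density of 12.0 (9.48 to 15.1), 2.56 (1.89 to 3.38) and 4.75 (3.56 to 6.21). Arg1 encodes the liver arginase, which cuts arginine into urea and ornithine, at chr10:24915207-24927470. With 172, 78 and 71 ends, its relative density was 28.6 (24.5 to 33.2), 4.27 (3.38 to 5.33) and 6.68 (5.22 to 8.43), the highest of the 6 in experiments 1 and 2.

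**Figure D1:**
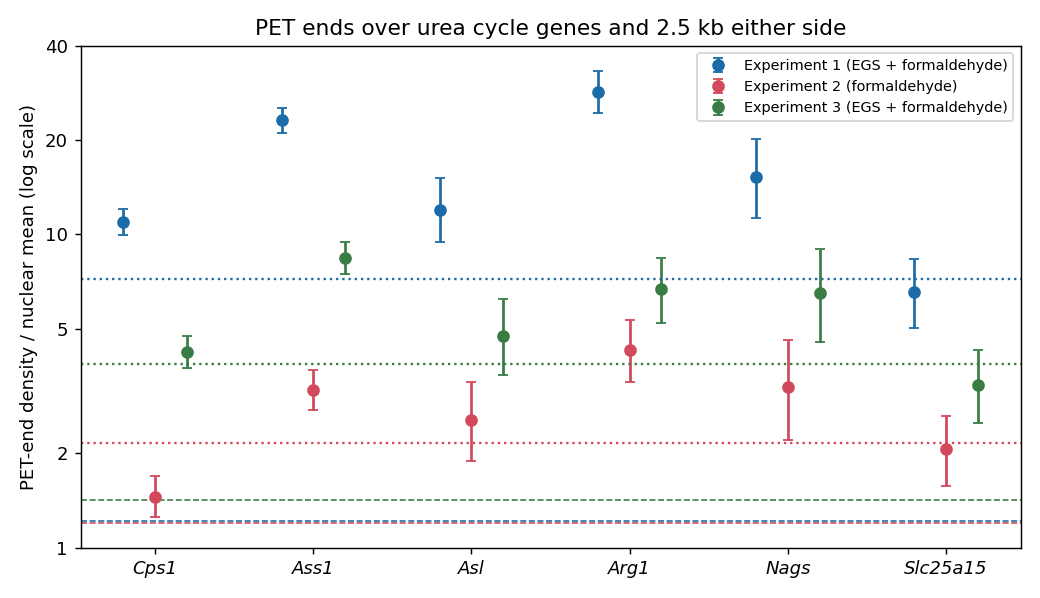
Relative density of PET ends (log axis) over each urea cycle gene and 2.5 kb either side, with exact 95% limits from the counts. Dashed and dotted lines give the median and the 95th percentile of protein-coding genes in the experiment of the same colour, and all 18 points lie above 1, with experiment 1 highest and experiment 2 lowest for each gene.

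The relative density of all 6 genes exceeded 1 in each of the 3 experiments, which held for 47.2% of the 21887 protein-coding genes. With the stricter rule that the lower limit of the interval exceed the mean in every experiment, the count was again 6 of 6, against 14.7% of protein-coding genes. The 6 were chosen with earlier results of these data known, so these counts are no test of the pathway. Otc, the enzyme of the cycle that is not among them, met neither rule. The median relative density of the 6 was 13.7, 2.88 and 5.62 in experiments 1, 2 and 3, beside 1.22, 1.20 and 1.42 over all protein-coding genes. Slc25a15 was below the 95th percentile of genes in every experiment (7.19, 2.16 and 3.87), and Cps1 was below it in experiment 2.

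The order of the 6 changed between pools, and few neighbours in it had a ratio whose interval left out 1. In experiment 1 the order was Arg1, Ass1, Nags, Asl, Cps1 and Slc25a15. There, Arg1 exceeded Ass1 by a ratio of 1.23 (1.03 to 1.47), Ass1 exceeded Nags by 1.52 (1.13 to 2.09) and Cps1 exceeded Slc25a15 by 1.68 (1.29 to 2.22), while the intervals of the other neighbouring pairs included 1. In experiment 2 Arg1 was again first and Cps1 moved to the last place, below Slc25a15 by a ratio of 1.41 (1.04 to 1.90), the only neighbouring pair there whose interval left out 1. In experiment 3 Ass1 was first, and no neighbouring pair had an interval that left out 1. Both ends of a PET at most 8 kb apart were counted, so the intervals of all these ratios are too narrow. With each PET counted once per gene, Arg1 was at 21.4 (17.9 to 25.5) and Ass1 at 18.1 (16.3 to 20.1) in experiment 1. Those limits overlap, as do those of Slc25a15 (1.37 to 2.37) and Cps1 (1.15 to 1.57) in experiment 2. For Ass1 and Nags, and for Cps1 and Slc25a15, the limits in experiment 1 still did not overlap.

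Each gene was densest in experiment 1, intermediate in experiment 3 and least dense in experiment 2. The ratio of experiment 1 to experiment 2 was 7.56 (6.33 to 9.06) for Cps1 and 7.27 (6.11 to 8.66) for Ass1, followed by 6.69 (5.09 to 8.85) for Arg1, 4.70 for both Asl and Nags, and 3.18 (2.21 to 4.59) for Slc25a15. Over all protein-coding genes the median of this ratio was 1.16. Experiment 3 exceeded experiment 2 by 2.90 (2.40 to 3.52) at Cps1 and 2.64 (2.18 to 3.19) at Ass1, and by 1.56 to 1.99 at the other 4 genes, beside a median of 1.25, which the intervals of those 4 include. Between the pools fixed the same way, experiment 1 exceeded experiment 3 by 1.98 (1.37 to 2.89) at Slc25a15 to 4.28 (3.23 to 5.72) at Arg1, where the median over all genes was 0.981. Crosslinking and experiment cannot be told apart here, and PETs spanning at most 8 kb also made up different shares of the pools, at 22.5%, 6.23% and 14.8%.

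Over known markers of liver cells, hepatocyte genes had a higher median than the urea cycle genes, and lists for other cells had medians near 1. The 8 hepatocyte markers had a median relative density of 52.2, 7.77 and 12.2, with 8, 7 and 7 of them above the mean in experiments 1, 2 and 3. Medians of the Kupffer cell and leukocyte, endothelial, stellate, cholangiocyte and kidney lists, 3 or 4 genes each, lay between 0.866 and 1.98 in every experiment. Single markers, named after their values were seen, departed from the medians of their lists. The hepatocyte marker Serpina1a was at 5.05, 0.309 (0.100 to 0.720) and 0.954, below the nuclear mean beyond counting error in experiment 2. The cholangiocyte marker Sox9 was at 5.71, 2.15 and 4.77, above Cps1 in value in experiments 2 and 3. The macrophage marker Adgre1 was at 0.442, 0.466 and 0.600. The rest of its list was higher, with Cd5l at 2.68, 1.61 and 0.803, Ptprc at 1.19, 1.42 and 1.17, and Clec4f at 0.865, 1.48 and 1.27. Removing PETs at most 8 kb apart left all 6 urea cycle genes with a lower limit above the mean in every experiment, and so did keeping only PETs whose first position no other PET shared, which removed 98689 PETs of experiment 1.

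PET ends were not spread evenly along the genes, and 1 boundary of each was denser than its body. Taking 1 kb either side of a boundary as its zone, the boundary with more ends over all experiments was the annotated start of Ass1, Nags and Slc25a15, the 3 genes with a strand in the promoter table. It was the lower coordinate of Cps1 and the upper coordinate of Asl and Arg1, for which no strand is used here. At Ass1, Nags and Slc25a15, the start was denser than the body, the rest of the span, in 9 of 9 pairs of gene and experiment, and the interval of the ratio left out 1 in 8 of them. The share of all genes with a denser start is not given here. Their median start zone was also denser than their median body in every experiment, as described below, so the counts do not set these genes apart. At Cps1, Asl and Arg1, the boundary was picked by the same counts, which favours a ratio above 1, so its values are a description.

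**Figure D2:**
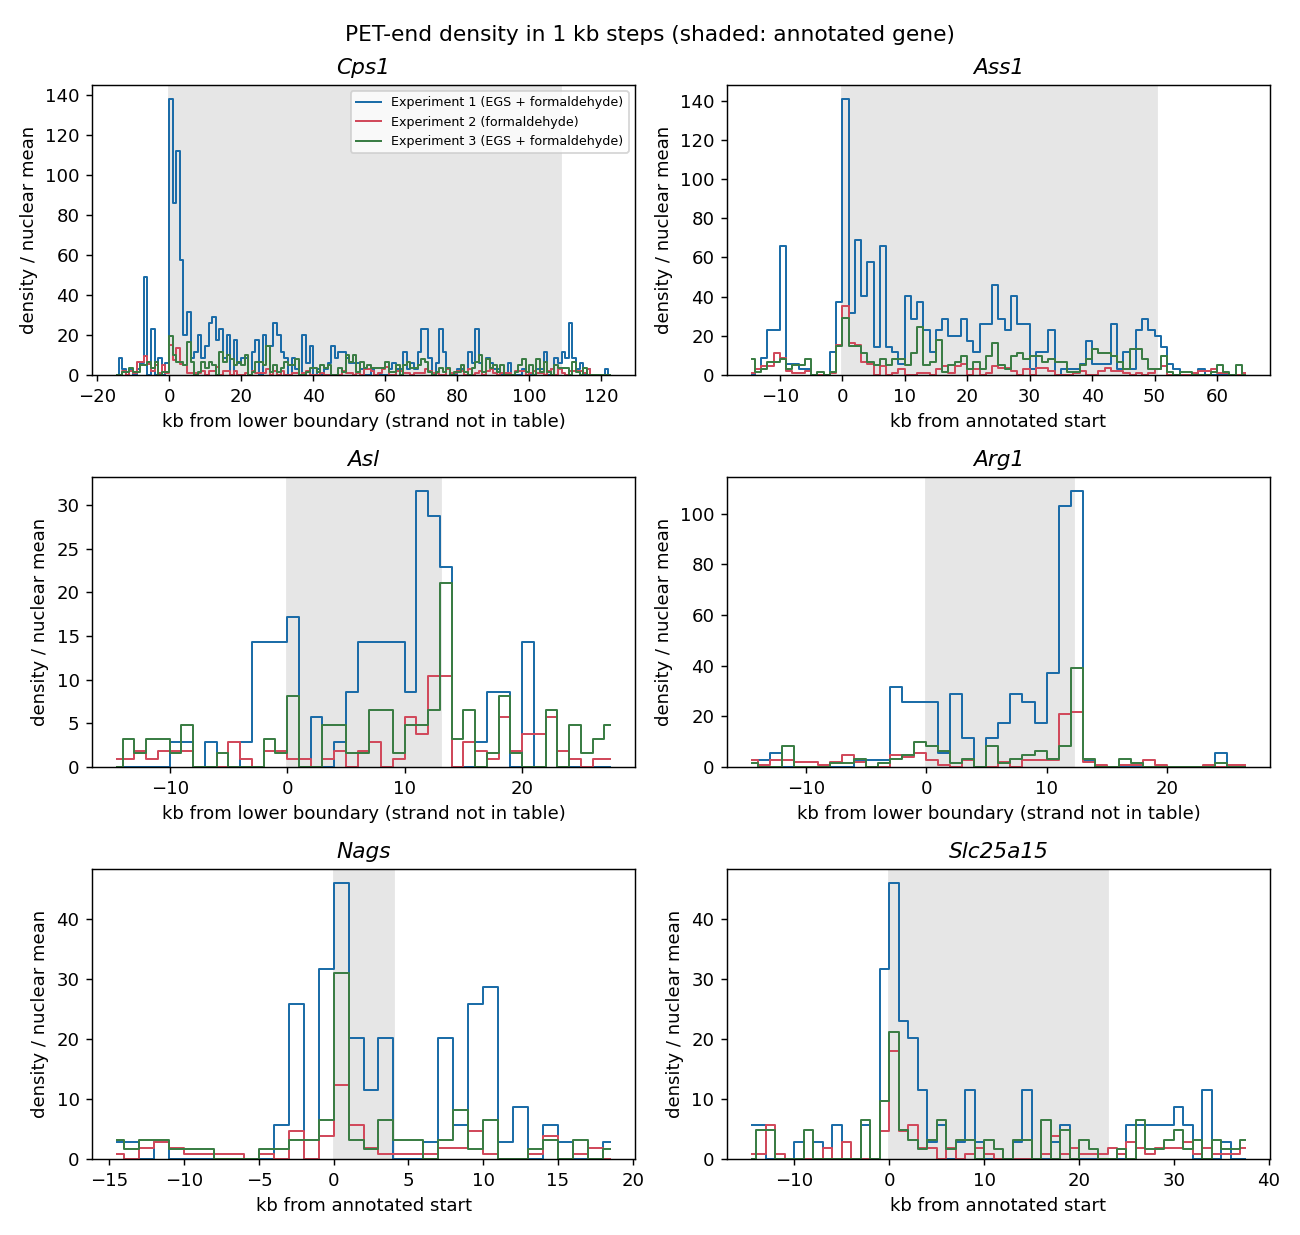
Relative density of PET ends in 1 kb steps (vertical axes, linear and different for each gene) along the 6 genes and 15 kb either side, by distance in kb from the annotated start, or from the lower boundary where no strand is used. The shaded span is the annotated gene, and the tallest steps lie at 1 side of it in each panel: at 0 kb for Cps1, Ass1, Nags and Slc25a15, at the upper boundary for Arg1 and at or near it for Asl. In experiment 1 the Asl step from 11.0 to 12.0 kb (31.6) was above the step that holds the boundary (22.9).

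At the Ass1 start, the zone had a relative density of 88.9 (68.1 to 114), 25.1 (18.8 to 32.8) and 21.9 (14.4 to 31.9) in experiments 1, 2 and 3, and the body had 21.6, 2.42 and 8.36. The ratio of zone to body was 4.12 (3.09 to 5.41), 10.3 (7.35 to 14.4) and 2.62 (1.69 to 3.91). At the lower boundary of Cps1 the zone had 71.7 (53.2 to 94.5), 8.04 (4.68 to 12.9) and 10.6 (5.62 to 18), against 10.0, 1.32 and 4.18 in the body. The zone-to-body ratio of Cps1 was 7.14 (5.20 to 9.61), 6.09 (3.46 to 10.1) and 2.52 (1.33 to 4.39), so that both genes had their lowest ratio in experiment 3.

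The upper boundary of Arg1 was as dense as the Ass1 start within counting error, at 94.6 (73.2 to 120), 19.9 (14.3 to 26.8) and 22.7 (15.1 to 32.8) in the 3 experiments, with a body at 20.1, 1.75 and 3.96. Slc25a15 had a dense start, at 38.7 (25.5 to 56.3), 11.3 (7.27 to 16.9) and 15.4 (9.29 to 24.1), over a body at 4.90, 1.39 and 2.62. Its other boundary held 0, 3 and 0 ends. At the upper boundary of Asl the zone had 24.4, 9.93 and 13.8 and the body 10.6, 1.79 and 3.36. The lower boundary of Asl was at 15.8 (7.87 to 28.2), 1.42 and 4.87, and in experiment 1 its limits overlapped those of the upper boundary. The lower boundary of Arg1 was at 25.8, 4.25 and 8.93, above the Arg1 body in value. The Nags start had 38.7, 8.04 and 18.7 over a body at 15.7, 3.76 and 2.42. The Nags body rests on 11, 8 and 3 ends, and its ratio in experiment 2, at 2.14 (0.875 to 5.73), was the one whose interval included 1.

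The same zones over other genes put these values in context. Over 14060 protein-coding genes of at least 4 kb with a strand, the start zone had a median relative density of 2.87, 1.42 and 2.44 and the body 1.03, 1.12 and 1.29. Over the 557 of these at or above the 95th percentile of density in the 3 experiments combined, the start zone had a median of 25.8, 6.15 and 10.6 and the body 6.75, 1.63 and 3.37. In value, the start zones of Ass1, Nags and Slc25a15 exceeded the latter medians in every experiment, and the body of Slc25a15 was below them. The limits of the Ass1 start left out these medians in every experiment. Those of the Nags start did so only in experiment 3, and those of the Slc25a15 start only in experiment 2. The limits of the Slc25a15 body, 3.43 to 6.79, 0.946 to 1.98 and 1.82 to 3.66, included the body medians.

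**Figure D3:**
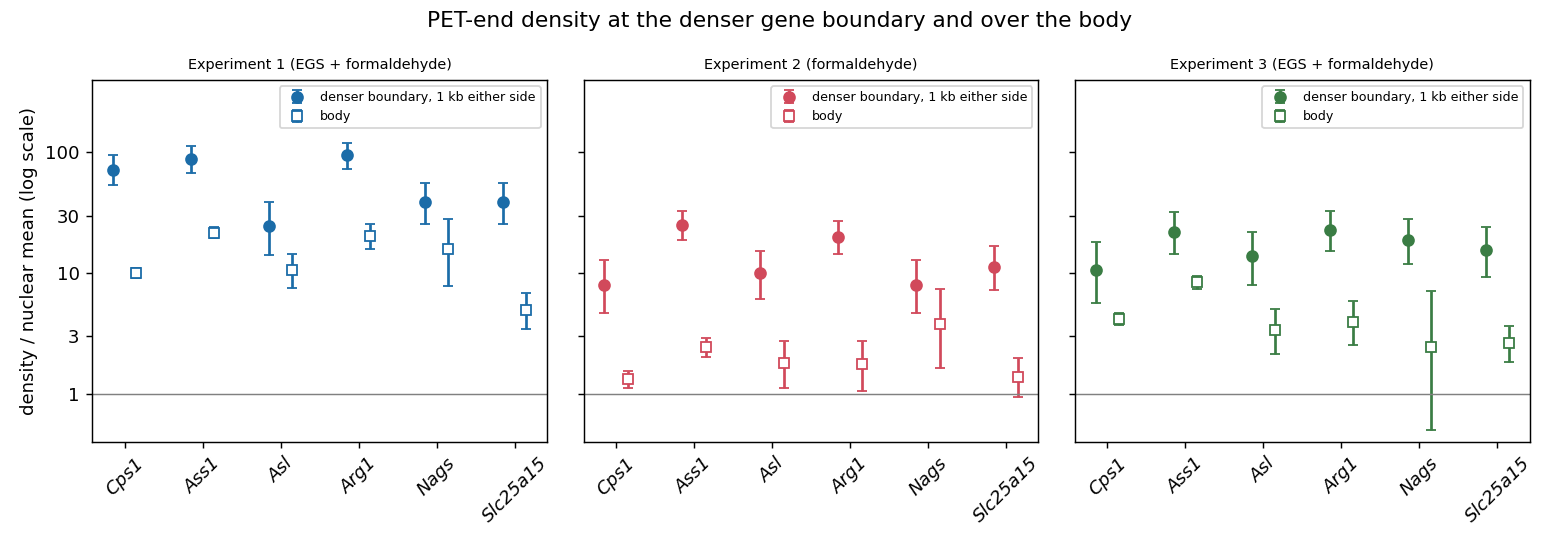
Relative density (log axis) within 1 kb of the denser boundary (filled circles) and over the body (open squares) of each urea cycle gene in the 3 experiments, with exact 95% limits from the counts. The circle lies above the square in all 18 pairs, and the Cps1 and Ass1 bodies are higher in experiment 3 (4.18 and 8.36) than in experiment 2 (1.32 and 2.42) while their boundaries are close.

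The difference between experiments 2 and 3 lay in the bodies of Cps1 and Ass1 more than at their dense boundaries. At the boundary, the ratio of experiment 3 to experiment 2 was 1.31 (0.587 to 2.87) for Cps1 and 0.875 (0.529 to 1.42) for Ass1. Over the body it was 3.17 (2.59 to 3.89) for Cps1 and 3.45 (2.77 to 4.31) for Ass1. For Ass1 the 2 intervals do not overlap, and for Cps1 they do. At the other 4 genes the boundary ratio ran from 1.14 (Arg1) to 2.32 (1.19 to 4.63, Nags), and the body ratio from 0.644 (0.110 to 2.68, Nags) to 2.26 (1.19 to 4.34, Arg1). The ratio of experiment 1 to experiment 2 was likewise larger over the Ass1 body, at 8.90 (7.24 to 11.0), than at its start, at 3.55 (2.42 to 5.22). For Cps1 the corresponding values were 7.61 (6.28 to 9.27) and 8.92 (5.06 to 16.5), whose intervals overlap.

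Within the bodies of Cps1 and Ass1, the longest of the 6 genes, density fell with distance from the dense boundary in experiment 1. In the 4 equal parts of the Cps1 body, 26.7 kb each and counted from the dense boundary, relative density was 22.2 (19.3 to 25.5), 8.27 (6.53 to 10.3), 5.69 (4.26 to 7.45) and 3.97 (2.80 to 5.48). In experiment 3 it was 6.26, 3.83, 3.16 and 3.47, so that the first part stood out and the intervals of the last 3 overlapped. In experiment 2 the second part of Cps1 was lower than the nuclear mean, at 0.567 (0.324 to 0.920), and the last 2 were at 1.35 and 1.17. In Ass1, with parts of 12.1 kb from the start, the values were 34.4, 24.2, 15.6 and 12.1 in experiment 1 and 4.38, 2.58, 1.56 and 1.17 in experiment 2. In experiment 3 they were 10.2, 7.38, 7.11 and 8.73, with intervals that all overlap.

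At the finer scale of 500 bp, steps were ranked by their ends over the 3 experiments together. The densest step of each gene lay at or just inside its dense boundary. For Ass1 it was the first 0.500 kb after the start, with 41, 18 and 7 ends in experiments 1, 2 and 3. The Ass1 step after it held 8, 19 and 11 ends, more in experiments 2 and 3. For Slc25a15 the densest step was also the first 0.500 kb, with 15, 17 and 11 ends, and entry 2 of its promoter, printed above, overlaps this step. For Nags and Cps1 it was the second step, from 0.500 to 1.00 kb, with 10, 8 and 14 ends at Nags and 32, 12 and 8 at Cps1. For Arg1 (34, 21 and 21 ends) and Asl (8, 8 and 12) the densest step held the upper boundary itself. The Asl step just inside it held 7, 9 and 4 ends, more in experiment 2. These steps were picked for their counts and are given as positions, with no test.

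Other annotated genes share some of these boundaries, and PET ends carry no strand by which to divide them. The long noncoding RNA gene Gm40616 overlaps the upper boundary of Arg1, and 111, 56 and 41 of the ends in the Arg1 window lay within it. Gm11586 overlaps the Nags start and held 25, 14 and 18 of the ends in the Nags window. 1810012K16Rik lies 99 bp beyond the Slc25a15 start and held 6, 2 and 4 ends of that window, and Gm40334 lies 746 bp beyond the upper boundary of Asl and held 0, 3 and 5. On the other side of Arg1, Med23, which encodes a subunit of the Mediator complex, is 1677 bp away, and the windows of both genes share 30, 16 and 15 ends. No gene overlaps the windows of Cps1 or Ass1.

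The genes also stood above their surroundings, taken as the stretch from 2.5 to 22.5 kb outside each boundary, in every experiment except for Cps1 in experiment 2. The share of all protein-coding genes that exceed their own flanks is not given here, so this does not set the 6 genes apart. Arg1 exceeded its flanks the most, by a ratio of 15.9 (10.4 to 25.3), 3.23 (2.26 to 4.63) and 4.22 (2.82 to 6.40). Cps1 exceeded its flanks by 2.13 (1.65 to 2.77) in experiment 1 and 2.60 (1.86 to 3.71) in experiment 3, and in experiment 2 the ratio was 0.820 (0.622 to 1.09). The flanks of all 6 genes were themselves above the nuclear mean in value, from 1.79 (Arg1) to 5.52 (Ass1) in experiment 1, from 1.04 (Nags) to 2.06 (Ass1) in experiment 2, and from 1.54 (Slc25a15) to 2.48 (Ass1) in experiment 3.

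At Cps1 and Ass1, part of the signal in these flanks came from single dense steps before the dense boundary. The 1 kb steps from 2.5 to 30 kb outside each gene were ranked by their ends over the 3 experiments together. The densest outside Cps1 lay 7.00 to 6.00 kb before the lower boundary (chr1:67115426-67116425), where no gene is annotated. It held 17, 10 and 3 ends, a relative density of 48.8 (28.4 to 78.1), 9.46 (4.54 to 17.4) and 4.87 (1.00 to 14.2). Of 2722211 steps of 1 kb over the nuclear genome, 0.0335% held at least as many ends in all 3 experiments, although 4.65% did so in experiment 3 taken alone. The corresponding step of Ass1 lay 10.0 to 9.0 kb before its start (chr2:31460270-31461269), within Hmcn2, the neighbouring gene that encodes an extracellular matrix protein. It held 23, 9 and 5 ends, a relative density of 66.0 (41.8 to 99.0), 8.51 (3.89 to 16.2) and 8.12 (2.64 to 19.0), and 0.0215% of steps had at least as many in all 3 experiments. Both steps were chosen for their counts, and no mark of an enhancer was used to name them.

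PETs that join a urea cycle gene to another place on its chromosome more than 8 kb away numbered 139, with 57, 34 and 48 in experiments 1, 2 and 3. They were divided as 54 for Cps1, 55 for Ass1, 15 for Arg1, 6 each for Asl and Slc25a15 and 3 for Nags. Most spanned long distances: 120 were over 10 Mb, 13 were from 1 to 10 Mb, and 6 were from 8 kb to 1 Mb. Of the far ends, 63.2% (49.3 to 75.6), 50.0% (32.4 to 67.6) and 66.7% (51.6 to 79.6) in experiments 1, 2 and 3 lay in the window of a protein-coding gene. These intervals include the shares over all ends of PETs over 8 kb on 1 chromosome, 53.5%, 48.0% and 55.2%. A pair in experiment 1 from Arg1 to D930020B18Rik shared the position in the Arg1 window and differed by 2 bp at the far end. Another 2 PETs of experiment 1 ran from the first 3.76 kb of Cps1 to Dpp10, with far ends in different places of that gene.

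The 6 PETs of 8 kb to 1 Mb belonged to Cps1 and Ass1 and to experiments 1 and 3. A PET of experiment 1 joined the inside of Cps1, at 67129128, to 67116412, which is 6.01 kb before its lower boundary and 12.7 kb from the first end. Its outer end thus fell in the dense step before Cps1 described above. A PET of experiment 3 had both ends in Cps1, at 0.941 and 21.1 kb from the lower boundary. A PET of experiment 1 ran 169 kb from Cps1 to Lancl1.

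At Ass1, a PET of experiment 3 joined 31470251, next to the start, to 31458861, and a PET of experiment 1 joined 31473105 to 31459444. The outer ends were 11.4 and 10.8 kb before the start, both within Hmcn2, and lay 583 bp apart. They were close to the dense step before Ass1 and just outside it. The third PET, of experiment 3, ran 134 kb from Ass1 to Prdm12. In experiment 2, which held the most PETs, no PET of this distance touched a urea cycle gene.

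**Figure D4:**
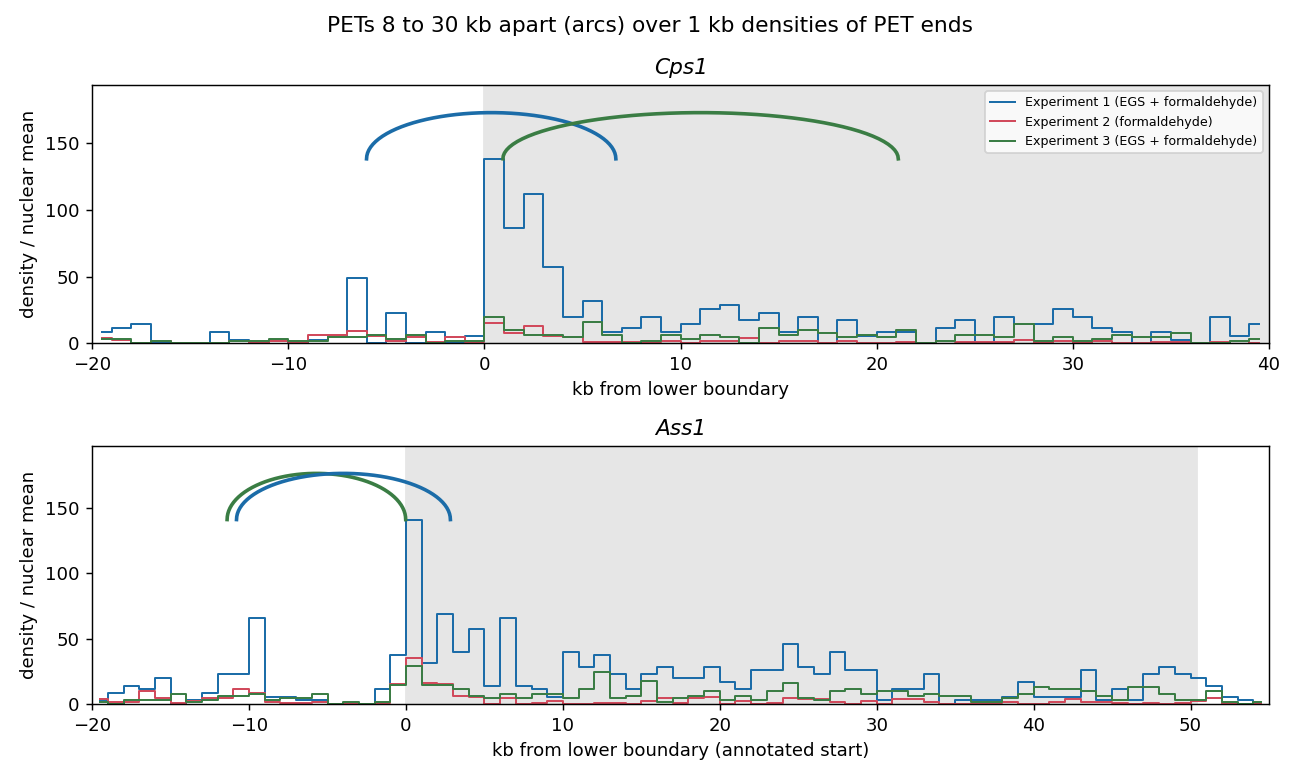
Relative density of PET ends in 1 kb steps near the dense boundary of Cps1 and Ass1 (vertical axes, linear), by distance in kb, with the PETs of 8 to 30 kb drawn as arcs in the colour of their experiment; arc height has no scale. Both Ass1 arcs leave from 10.8 to 11.4 kb before the start, and 1 Cps1 arc leaves from 6.01 kb before the lower boundary.

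These contacts were too few to tell whether their frequency differed from that over the genome. Of every 1000 PET ends over the urea cycle genes, 2.41 (0.498 to 7.03) in experiment 1 and 5.00 (1.36 to 12.8) in experiment 3 belonged to a PET of 8 kb to 1 Mb, with exact Clopper-Pearson limits, beside 2.54 and 4.13 of every 1000 ends in the whole pools. In experiment 3 the 4 ends came from 3 PETs, including the PET with both ends in Cps1, so the limits are too narrow there. In experiment 2 the 0 of 581 ends allow up to 6.33 per 1000 by the same limits, beside 1.12 in the whole pool. No PET joined any of the 6 genes to another of the 6, among 977, 516 and 694 PETs that touched them. Of the partner ends on other chromosomes, 56.5% (52.6 to 60.3), 48.4% (43.6 to 53.4) and 55.7% (51.4 to 60.0) in the 3 experiments lay in the window of a protein-coding gene. The same shares over all ends of interchromosomal PETs were 51.7%, 47.8% and 53.1%.

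PETs with ends at most 8 kb apart were a larger share of those touching each gene in experiment 1 than in experiment 2, as in the whole pools. In experiment 1 they were 37.1% (21.5 to 55.1) of the PETs touching Nags, 34.1% (26.0 to 43.0) at Arg1, 33.3% (21.4 to 47.1) at Asl and 22.4% (18.2 to 27.1) at Cps1, with overlapping intervals. In experiment 2 they were 19.9% (13.9 to 27.0) at Ass1 and 8.02% (4.34 to 13.3) at Cps1. Each such PET adds 2 ends in 1 place, so the limits from counts are too narrow there. Counting each PET once per gene gave a relative density of 9.0 for Cps1, 18.1 for Ass1 and 21.4 for Arg1 in experiment 1.

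Other genes of ammonia, arginine and aspartate metabolism, Otc among them, were more mixed. Of 20 such genes, 15 had a relative density over 1 in every experiment and 11 had a lower limit over 1 in every experiment, beside 47.2% and 14.7% of protein-coding genes. Their median relative density was 4.21, 1.40 and 2.39 in experiments 1, 2 and 3. By density in the experiments combined, Slc38a3, a glutamine transporter, was the densest at 27.9, 3.69 and 8.61, at the level of Arg1 and Ass1. Gls2, the liver glutaminase, followed at 15.9, 2.93 and 6.06, and Glul, glutamine synthetase, at 5.24, 2.37 and 4.61. In experiment 1 alone, Slc7a2 (11.0), Mdh2 (6.51), Got1 (6.34) and Glud1 (5.91), named after their values were seen, were also above Glul.

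The 3 lowest of the 20 by combined density were Slc25a2, Otc and Rhbg, and the order at this end changed between experiments. Otc encodes ornithine transcarbamylase, which joins carbamoyl phosphate to ornithine and is the remaining enzyme of the cycle. It had 49, 42 and 34 ends, a relative density of 1.90 (1.41 to 2.52), 0.538 (0.388 to 0.728) and 0.748 (0.518 to 1.05), below every member in every experiment. Otc is on the X chromosome, whose own mean density was 0.432, 0.395 and 0.358 of the nuclear mean. Relative to the X chromosome, Otc was at 4.41 (3.26 to 5.83), 1.36 (0.982 to 1.84) and 2.09 (1.45 to 2.92). On the scale of its own chromosome, Cps1 in experiment 2 was at 1.33 (1.14 to 1.54), so Otc was not below every member there. In experiments 1 and 3 the lowest member on this scale was Slc25a15, at 5.85 (4.51 to 7.48) and 2.91 (2.21 to 3.78), above Otc in value with overlapping limits. Slc25a2, an ornithine carrier related to Slc25a15, was at 0.904, 0.894 and 0.512 on 2, 6 and 2 ends, and Rhbg, an ammonia transporter, at 0.510, 1.18 and 1.25.

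**Figure D5:**
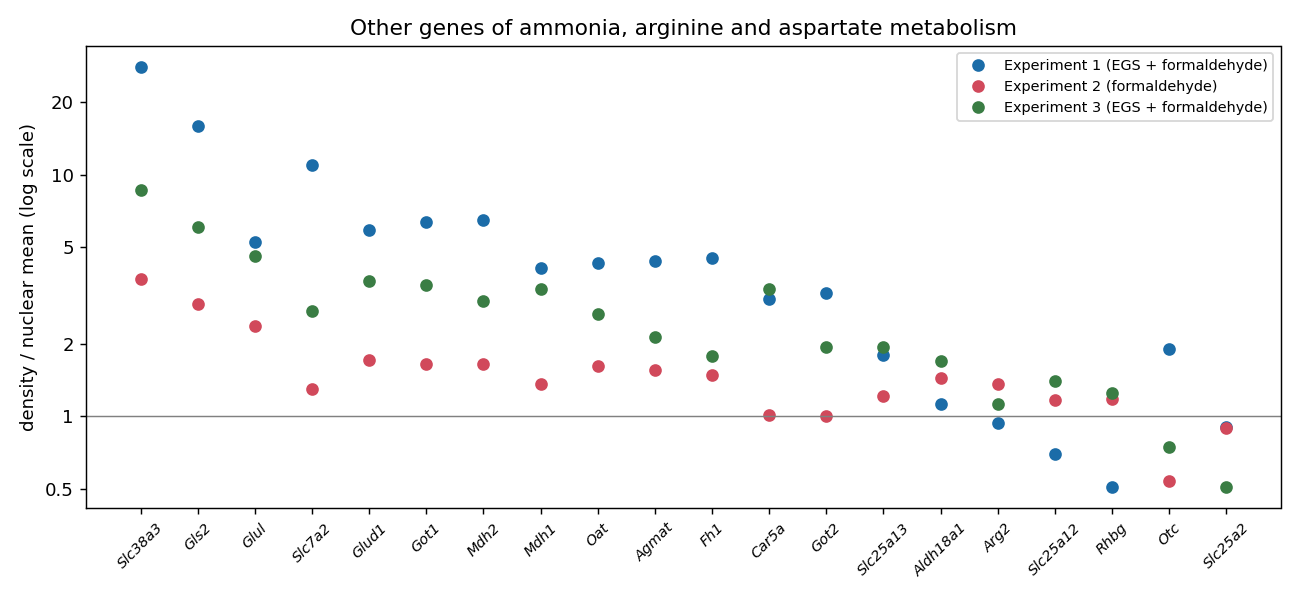
Relative density of PET ends (log axis) for 20 other genes of ammonia, arginine and aspartate metabolism in the 3 experiments, ordered by density in the experiments combined. Slc38a3 is the densest (27.9, 3.69 and 8.61), and Otc and Slc25a2 stand at the low end.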

How the data were processed

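The authors deposited 1 table of PETs of 8 liver libraries. Judged by its values, a row holds the experiment, both linkers, where each end maps and how far apart the ends are in bp, but neither the library nor the time. The submitters' processing notes name Bowtie2 and mm10 without a role, with filters and treatment of duplicates not given in the sources used here. Positions were joined to the RefSeq gene table and promoters on GRCm38.p6.

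PETs with a mitochondrial end were left out. Ends were counted over each gene with 2.5 kb either side and divided by the mean over 2722 Mb, the sum of the highest position on each nuclear chromosome. Limits are exact Poisson limits, exact conditional limits for ratios and Clopper-Pearson limits for shares, all at 95%, with Python 3.11.15 and numpy 2.4.6. PETs were called near up to 8 kb. Counting was checked on simulated ends. With 1 pool per experiment no test between groups was made, and the linkers were not used as groups.

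The text names the 6 members, genes overlapping their windows or at far ends of their PETs, the 2 genes nearest to each in density (some are not reported here), and the highest and lowest 3 of a list of 20 related genes. The members and lists were chosen with earlier results of these data known.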

Additional observations from a re-analysis of the deposited data

How the results depend on the processing

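All 6 genes stayed above the nuclear mean, and kept a lower limit above it, in each experiment used under all 12 alternatives tried. Of 85 alternative values of 9 summary results, 67 moved by less than their interval or 1.5 times, 18 moved further and 0 changed direction. Of 162 values of single genes, 128 moved less than their interval, 34 moved further and 0 changed direction.

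The median relative density of the 6 genes over all experiments, 5.58, became 6.69 without flanks and 6.87 with flanks of 1 kb, 3.87 without PETs at most 8 kb apart, 4.50 with each PET counted once per gene, and 4.30 against the median gene. It ranged from 3.90 (without experiment 1) to 8.52 (without experiment 2). In experiment 1 the median of 13.7 became 18.6 without flanks, 9.02 without PETs at most 8 kb apart and 10.1 with each PET counted once. In experiment 2 the median of 2.88 became 2.31 without PETs at most 8 kb apart, and in experiment 3 the median of 5.62 became 3.97 against the median gene. The median ratio of boundary to body, 5.01 over all experiments, became 3.56 with a zone of 2.5 kb, at which only 5 genes have a body. The 6 PETs of 8 kb to 1 Mb became 3 over 20 kb, 3 without experiment 1 and 3 without experiment 3, and the 139 PETs over 8 kb became 82 without experiment 1 and 91 without experiment 3. The cause was not tested. The mean of each gene's own chromosome as denominator, chosen after seeing the data, gave a median of 4.86. No paired analysis was possible because the deposited rows carry no library or replicate number.

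Counting limits leave out the spread between livers and libraries. Depth was lowest in experiment 1, and the Nags body and the single dense steps rest on few ends.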

Other observations

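Among 8064 protein-coding genes with at least 100 PET ends, genes near to each member in relative density over the 3 experiments were found by the Euclidean distance of log2 values. This is a likeness over 3 pools, and each distance is on the log2 scale. Arg1, at 28.6, 4.27 and 6.68, was nearest to Ppp1r3c, a glycogen-targeting subunit of protein phosphatase 1, at 27.9, 4.12 and 6.91 (distance 0.0802), then to Foxa2, a liver transcription factor, at 28.7, 4.79 and 6.43 (0.172). Ass1 was close to Tsku, which encodes a secreted protein (0.180). Asl was nearest to Hpn, a membrane serine protease abundant in liver (0.114), and Plscr3 (0.167).

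Nags was nearest to Spsb3 (0.0679), and Slc25a15 to Il17rb (0.0581) and Hspb8 (0.0828). Cps1, with its low value in experiment 2, was nearest to Zfp771 (0.132), at 10.7, 1.57 and 4.04, and Setd1b, a histone methyltransferase (0.209), at 9.63, 1.50 and 4.01.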
